A study of Mus musculus with 35 samples.

Results

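The genes described here are 38 markers of neutrophils and monocytes, read in RNA sequencing of sorted mouse long-term haematopoietic stem cells (LT-HSCs). They were taken by name from a list of granule, receptor and phagocyte genes, and 37 of the 38 were among the 19138 genes counted in each library. Ly6g, the surface antigen of mature mouse neutrophils, had no count to analyse here and enters only the sequence counts. The list was divided by stage: 21 genes of late granules and mature neutrophils, 5 of primary granules and early myeloid progenitors, 5 of monocytes, and 7 that neutrophils and monocytes share.

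The study profiled 35 libraries, each made from 1000 cells sorted as LT-HSCs, in 6 groups of mice that all carried the SclCre transgene. The control group had Ezh2 +/+ and no JAK2V617F (4 libraries, all female). The Ezh2-heterozygous group was SclCre; Ezh2 +/- (7 libraries, 3 female and 4 male), and the Ezh2-null group was SclCre; Ezh2 -/- (4 libraries, 1 female and 3 male). JAK2V617F, an activating mutation of the cytokine-signalling kinase JAK2 found in myeloproliferative neoplasms, was present with Ezh2 +/+ in the JAK2-VF group (6 libraries, 2 female and 4 male), with Ezh2 +/- in JAK2-VF Ezh2-het (8 libraries, 5 female and 3 male) and with Ezh2 -/- in JAK2-VF Ezh2-null (6 libraries, 5 female and 1 male). Ezh2 is the enzyme that gives the silencing complex PRC2 its histone methylation activity. SclCre drives Cre recombinase from regulatory sequence of the Scl gene, which is active in blood stem cells, and the labels give no age, time of recombination or animal identity. With no animal identity, a p-value here reflects only variation from library to library, which may be technical.

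The libraries were labelled as 2 experimental batches of 14 and 21, and held 13.6 to 48.6 M counts (median 24.9 M, where M is 1000000). Ezh2 was lower in Ezh2-null libraries (19.2 to 28.4 counts per 1000000, CPM) than in controls (27.8 to 65.1), with overlap at the edge. A short segment of Ezh2, tallied separately in the tables, held 6.02% to 8.72% of the gene's counts in controls, at most 0.478% in Ezh2-null libraries and 0 counts in every JAK2-VF Ezh2-null library. The library labelled Ezh2-het batch 1 replicate 3 also held 0 of 831 Ezh2 counts in that segment, which allows a share of up to 0.361%. Xist, the RNA of the inactive X chromosome, reached 394 CPM in Ezh2-het batch 1 replicate 1, which is labelled male, against at most 14.8 in the other males and 582 to 1433 in the females. Without these 2 libraries Mmp8, Mmp9 and Ncf4 were called in the same comparisons as below, while Anxa1 in the Ezh2-het comparison was not (edgeR adjusted p = 0.0732) and Ncf1 was. Stem cell genes were present in every library, among them Hlf (216 to 695 CPM) and Procr (61.8 to 274). Genes of other cells were also counted. Their summed level over the 35 libraries had a median of 22.5 CPM for 9 T and NK cell genes (at most 99.6). It was 27 for 9 macrophage genes (at most 64.6) and 68.5 for 11 B cell genes (at most 110). The 9 basophil, mast cell and eosinophil genes had a median of 10.1 but reached 1034. Other lists were higher: 443 for 6 dendritic cell genes (at most 1229), 2308 for 9 megakaryocyte genes and 5242 for 12 erythroid genes. Of single genes, Cd3e, Adgre1 and C1qa had a median of 0.

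Neutrophils form their granules in waves. Promyelocytes fill primary granules with myeloperoxidase and serine proteases, and later cells turn to specific and gelatinase granules with lactoferrin, Camp and the matrix metalloproteinases, under transcription factors that include PU.1 early and C/EBP epsilon late. Long-term stem cells are not known to build granules, although transcripts of some myeloid genes are found at low level in immature cells.

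The stretch of DNA just before the start of each gene is shown for 5 members whose levels are compared most closely below. Ngp and S100a8 are late neutrophil genes, and Mpo, Elane and Prtn3 are primary granule genes. The sequences are RefSeq's for the GRCm38.p6 assembly, which is not the mm9 build named for the counts. Each is 250 bases on the + strand, written 5′ to 3′ and ending just before the gene start. Capitals mark matches, on either strand, to TTNCNNAA (the core letters of a C/EBP motif) or to GAGGAA (the core letters of a PU.1 motif). The intervals are chr9:110419558-110419807 for Ngp, chr3:90668821-90669070 for S100a8, chr11:87793534-87793783 for Mpo, chr10:79886062-79886311 for Elane and chr10:79879417-79879666 for Prtn3.
Ngp: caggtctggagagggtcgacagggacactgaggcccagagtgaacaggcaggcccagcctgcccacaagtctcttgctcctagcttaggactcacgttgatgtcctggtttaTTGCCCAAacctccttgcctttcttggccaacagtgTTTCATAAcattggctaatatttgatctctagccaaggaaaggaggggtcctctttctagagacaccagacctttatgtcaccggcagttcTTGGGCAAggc
S100a8: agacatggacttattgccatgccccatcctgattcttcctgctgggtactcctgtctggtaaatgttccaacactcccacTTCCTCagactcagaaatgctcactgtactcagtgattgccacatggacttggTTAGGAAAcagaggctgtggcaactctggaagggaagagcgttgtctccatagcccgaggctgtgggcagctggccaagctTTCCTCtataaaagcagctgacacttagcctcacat
Mpo: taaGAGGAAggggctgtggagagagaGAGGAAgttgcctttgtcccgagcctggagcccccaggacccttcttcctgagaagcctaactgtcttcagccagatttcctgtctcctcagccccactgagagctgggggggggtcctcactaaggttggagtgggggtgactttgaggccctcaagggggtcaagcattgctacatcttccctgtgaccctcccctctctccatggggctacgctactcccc
Elane: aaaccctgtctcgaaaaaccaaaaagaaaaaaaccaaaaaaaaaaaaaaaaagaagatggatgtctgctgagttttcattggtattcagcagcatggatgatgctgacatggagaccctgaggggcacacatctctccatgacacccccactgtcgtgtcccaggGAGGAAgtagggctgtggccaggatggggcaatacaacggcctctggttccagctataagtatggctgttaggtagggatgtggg
Prtn3: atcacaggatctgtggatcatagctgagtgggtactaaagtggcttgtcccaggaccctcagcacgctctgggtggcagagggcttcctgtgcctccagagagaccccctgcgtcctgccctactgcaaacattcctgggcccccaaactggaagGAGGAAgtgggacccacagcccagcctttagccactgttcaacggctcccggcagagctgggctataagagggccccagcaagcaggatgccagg

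Ngp held 3 matches to the C/EBP letters, beginning 138, 102 and 11 bases before the start, and none to the PU.1 letters. S100a8 held 1 match to the C/EBP letters, 117 bases before the start, and 2 to the PU.1 letters, at 170 and 36. Mpo held 2 matches to the PU.1 letters, at 247 and 224 bases before the start, and Elane and Prtn3 held 1 each, at 85 and 95. No match of one motif overlapped a match of the other in these 5. Such an upstream stretch was found for 31 of the 38 members, and the C/EBP letters were present in 20 of them, against 36.8% of 32851 stretches of the same length over all genes. By stage, 12 of 17 late genes had a match to the C/EBP letters, 1 of 5 early genes, 3 of 3 monocyte genes and 4 of 6 shared genes. The PU.1 letters were present in 18 of the 31 (10 late, 4 early, 2 monocyte and 2 shared), against 23.3% of all stretches. A match of so few letters is a description of the sequence and shows no binding.

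The late granule genes were abundant and varied widely between libraries of the same genotype. CPM values are on library sizes scaled by the TMM method. Ngp, the neutrophilic granule protein, ranged from 4.67 CPM (69 counts) to 5486 CPM over the 35 libraries, a 1175-fold range around a median of 851. The specific granule genes moved over similar ranges. Camp, which encodes the antimicrobial peptide cathelicidin, spanned 1.35 to 1283 CPM. Ltf, lactoferrin, spanned 0.744 to 1185 CPM, and Lcn2, the siderophore-binding lipocalin, spanned 1.29 to 722. Chil3, a chitinase-like secreted protein, spanned 0.541 to 555 CPM. S100a8 and S100a9, the subunits of calprotectin, kept a higher floor, at 21.8 to 2892 CPM and 17.7 to 1669 CPM. Per kilobase of the deposited gene length, S100a8 had the highest median level of the 37 members (1192 CPM per kilobase), followed by Ngp (733), S100a9 (553), Prtn3 (488) and Lyz2 (441).

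Other late genes were scarce. Mmp8, the neutrophil collagenase, had no counts in 8 libraries and reached 31.9 CPM. Mmp9, the gelatinase of gelatinase granules, had none in 5 and reached 49.5. Mmp25, a membrane-bound metalloproteinase, had none in 12, the chemokine receptor Cxcr2 none in 7, and the secreted peptide gene Retnlg none in 4. Cebpe, the transcription factor of late granule formation, was at 0 in 1 library and otherwise reached 57.8 CPM around a median of 6.33. The remaining late genes with wide ranges were Cd177, a neutrophil surface protein (0.0677 to 216 CPM), haptoglobin or Hp (0.0677 to 297), the ficolin Fcnb (0 to 222) and Wfdc21 (0 to 81.3). Pglyrp1, Padi4 and Anxa1 behaved otherwise. Padi4, an enzyme that citrullinates histones, stayed between 78.6 and 252 CPM, Anxa1, annexin A1, between 153 and 558, and Pglyrp1, a peptidoglycan-binding granule protein, between 33.2 and 288.

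**Figure D1:**
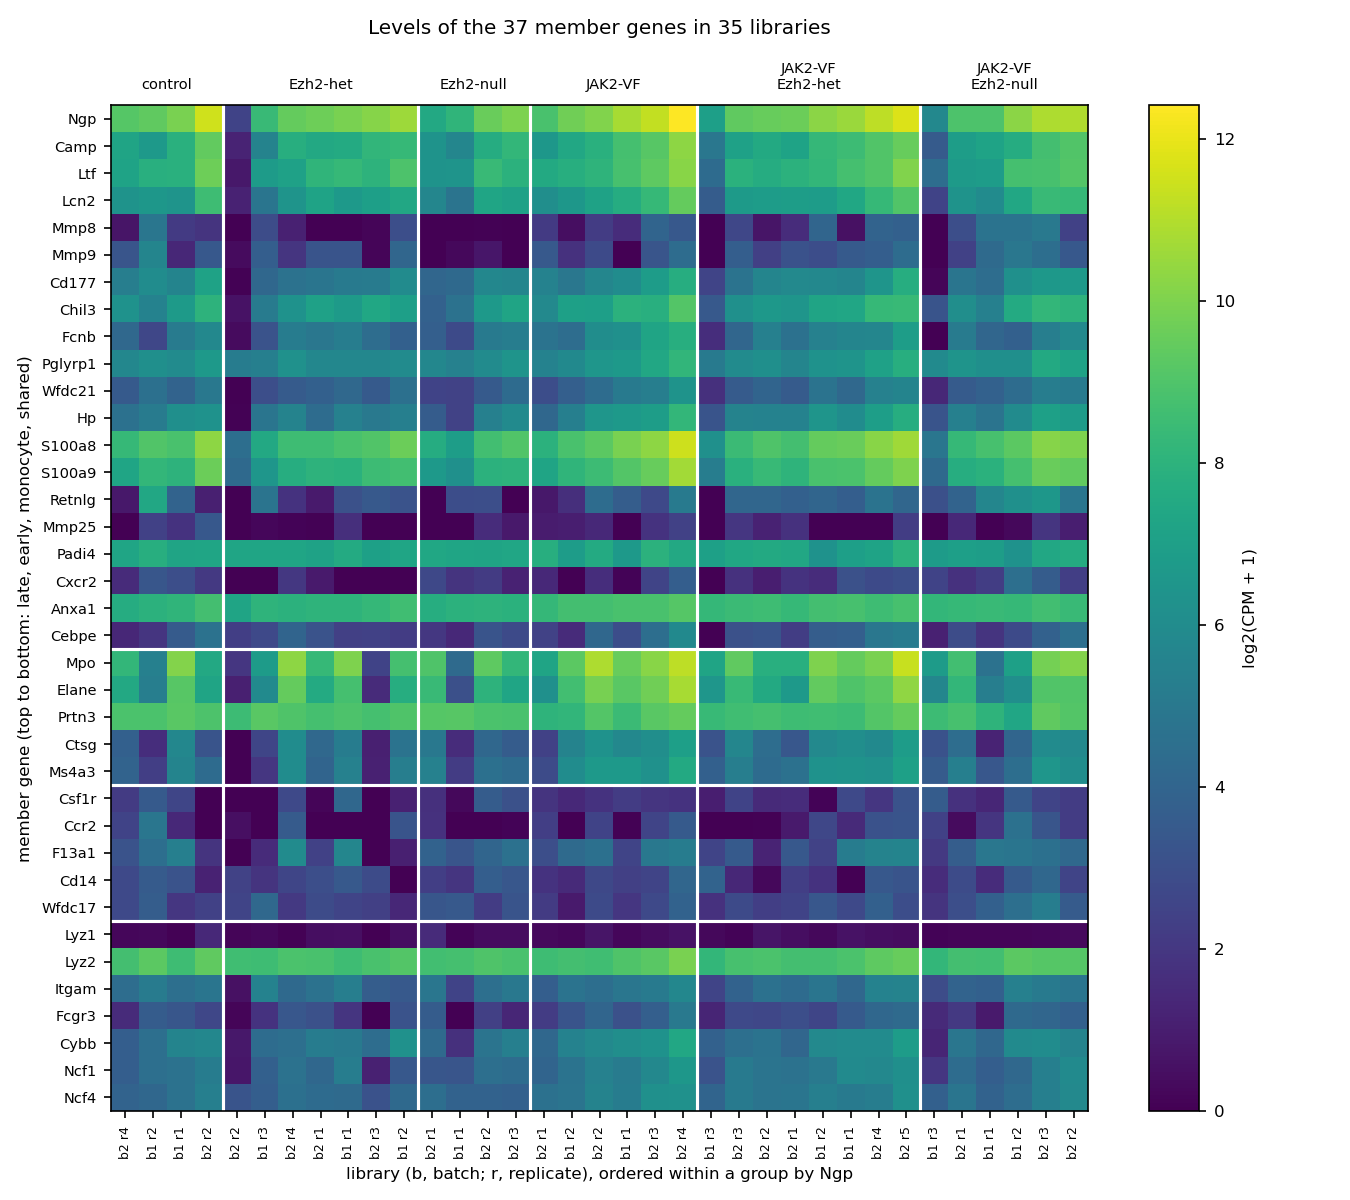
Level of each of the 37 members (rows, by stage) in each of the 35 libraries (columns, by group and then by Ngp), as log2(CPM + 1). Most late granule genes darken and fade together from library to library within each group, whereas Padi4, Anxa1, Prtn3 and Lyz2 keep a nearly even level across the columns.

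The extremes fell on the same libraries. Ezh2-het batch 2 replicate 2, a library of 14.3 M counts, had the lowest value of 23 members, 14 of them late. JAK2-VF batch 2 replicate 4, with 36.5 M counts, had the highest value of 22 members, 13 of them late. Of 6 stem cell genes looked at in these 2 libraries, 4 lay the other way. Procr, the stem cell surface receptor EPCR, was 274 CPM in the first, its highest value of all, and 61.8 in the second, its lowest. Mllt3, a regulator of stem cell maintenance, was 634 and 153 CPM, and Hlf was 624 and 253. Mecom was 243 and 126. Kit, at 845 and 665 CPM, lay below its median of 1083 in both, and Slamf1, at 77.2 and 73.4, above its median of 61.3 in both. The 2 libraries also differ in genotype, only the second carrying JAK2V617F. Procr, Mllt3 and Hlf were called lower in JAK2-VF than in controls by edgeR (log2 -1.01, -1.30 and -0.69). The part of genotype in the contrast between these 2 libraries was not tested. Over all 35 libraries, the correlation of Ngp with the summed level of a marker list was -0.31 for 14 stem cell genes, -0.30 for 11 B cell genes, 0.42 for 9 macrophage genes (7.37 to 64.6 CPM) and 0.43 for 9 basophil, mast cell and eosinophil genes (0.0677 to 1034 CPM). The part of other cells in the granule levels was not tested. In bulk libraries, fewer cells of a type and less RNA per cell cannot be told apart.

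Summed over the 20 late genes, the members took 0.0414% to 1.5% of a library's counts. The mean sum was 4036 ± 2803 CPM in controls (SD, n = 4), 2609 ± 1388 in Ezh2-het (n = 7), 2129 ± 1105 in Ezh2-null (n = 4), 6286 ± 5068 in JAK2-VF (n = 6), 4431 ± 3026 in JAK2-VF Ezh2-het (n = 8) and 3684 ± 2447 in JAK2-VF Ezh2-null (n = 6). The SD was large beside the mean in every group, and the ranges of all 6 groups overlapped.

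The early genes split into 4 that swung as widely as the late ones and 1 that did not. Mpo, myeloperoxidase, ranged from 2.84 to 2628 CPM, and Elane, neutrophil elastase, from 1.15 to 1801. Ctsg, cathepsin G, ranged from 0 to 130 CPM and Ms4a3, a marker of granulocyte-monocyte progenitors, from 0 to 184. Prtn3, proteinase 3, ranged only from 162 to 725 CPM, a 4.48-fold range. Prtn3 and Elane lie next to each other with no protein-coding gene between them, and their upstream sequences shown above each held 1 PU.1 match. The sum of the 5 early genes took 0.0362% to 0.488% of a library's counts.

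The monocyte genes had low levels. Csf1r, the receptor for the macrophage growth factor, had a median of 2.65 CPM and none in 4 libraries. Ccr2, the chemokine receptor of classical monocytes, had a median of 1.79 and none in 10. F13a1, a coagulation factor subunit made by monocytes, reached 61.9 CPM around a median of 14.1, Cd14, the endotoxin co-receptor, 17 around 4.93, and Wfdc17, a secreted inhibitor-like protein, 37.6 around 5.80. Together these 5 genes took at most 0.00945% of a library's counts.

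Of the shared genes, Lyz2, lysozyme, was the steadiest at 297 to 981 CPM. Its close copy Lyz1 lay next to it in the genome and stayed at 1.88 CPM or less, and how the counting divided reads between these copies is not given in the sources used here. Cybb, Ncf1 and Ncf4 encode subunits of the phagocyte NADPH oxidase. Cybb ranged from 0.744 to 173 CPM, Ncf1 from 0.677 to 95.3 and Ncf4 from 7.70 to 76.5. The integrin gene Itgam (0.474 to 52.6 CPM) and the Fc receptor gene Fcgr3 (0 to 31.7) completed the group.

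The spread can be set beside that of all genes through the biological coefficient of variation (BCV), the SD between libraries relative to the mean that edgeR estimates beyond counting error. The median BCV was 0.828 over the 37 members and 0.299 over the 14945 tested genes. By stage the median was 0.807 for late, 0.996 for early, 1.07 for monocyte and 0.680 for shared genes. These medians are not at equal abundance. The BCV trend that edgeR fits against level was 0.359 (F13a1) to 0.763 (Csf1r) for the monocyte genes. It was 0.182 for Ngp and 0.180 for Mpo, and Lyz1 (0.861) lay below its trend of 1.57. Only 4 members lay below the median of all genes: Anxa1 (0.195), Padi4 (0.220), Lyz2 (0.233) and Prtn3 (0.267). Of the 37, 21 had counts in every library. Among those 21, 13 had a range above 100-fold and 6 had one under 10-fold.

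**Figure D2:**
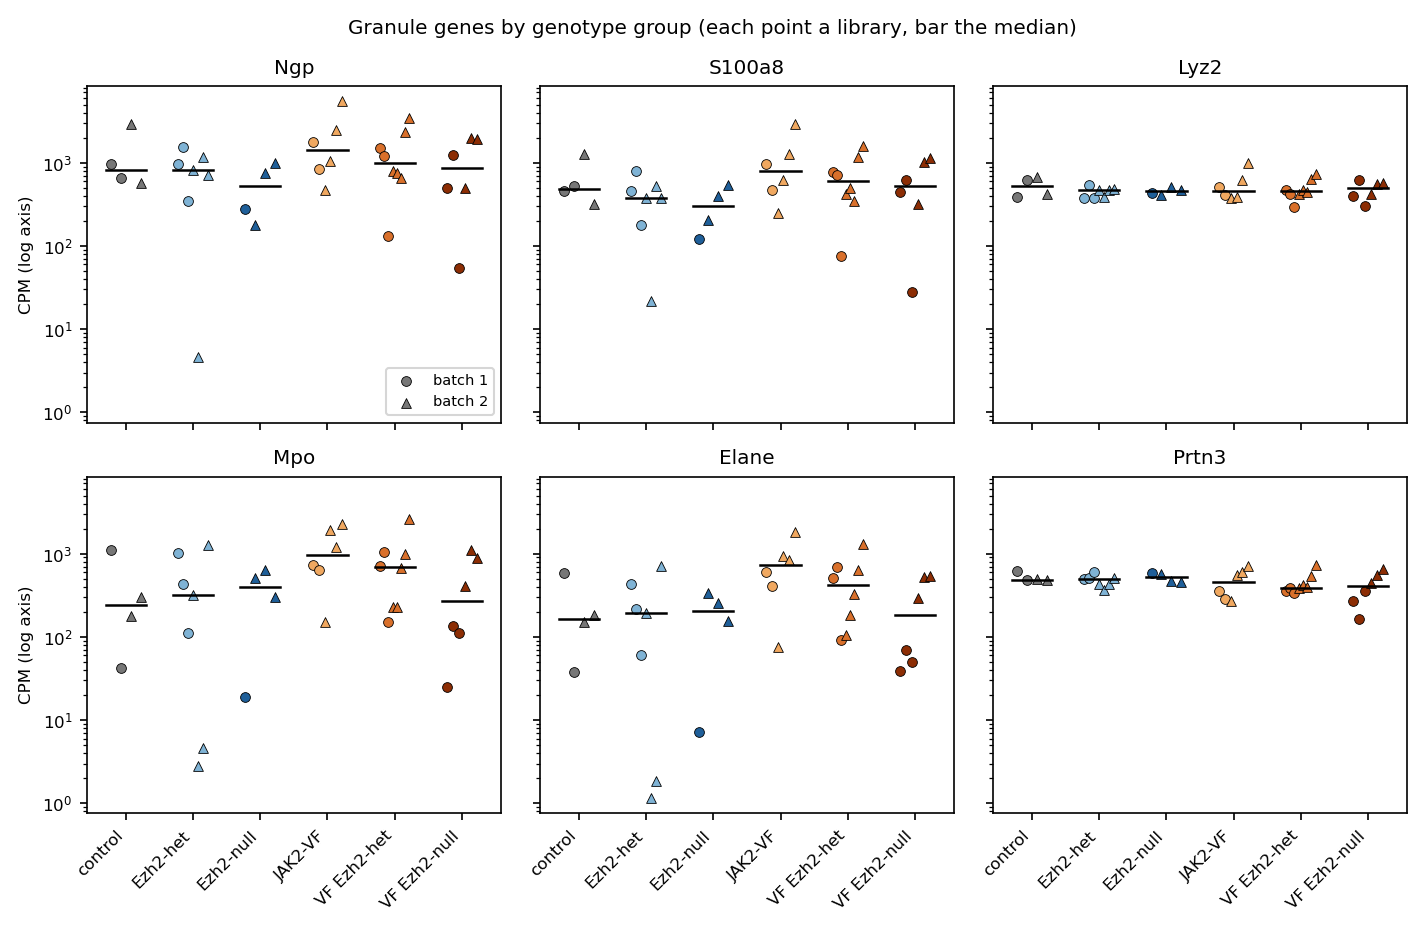
CPM on a log axis of 6 members in the 6 groups, with 1 point per library (circles batch 1, triangles batch 2) and a bar at the group median. Ngp, S100a8, Mpo and Elane scatter widely within groups, while Prtn3 and Lyz2 stay between 162 and 981 CPM.

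Several abundant late genes kept a much narrower ratio to each other than their levels ranged. The S100a8 to S100a9 ratio stayed between 1.21 and 2.04 in all 35 libraries (median 1.67), although the genes alone varied 133-fold and 94.5-fold. In libraries where both genes had at least 30 counts, the ratio of Ngp to Camp was 2.21 to 7.41, of Ngp to Ltf 2.20 to 6.77, and of Ngp to Chil3 6.02 to 14.8. Ngp to S100a8 was 1.89 at the median and ranged from 0.214, in Ezh2-het batch 2 replicate 2, to 2.31. The ratio of Mpo to Elane was likewise contained, at 0.644 to 2.60. Mpo to Prtn3, also both of the early stage, ran from 0.00769 to 3.62, and Ngp to Mpo, across stages, from 0.356 to 255, a 716-fold range. Lyz2 to Prtn3, both steady in level, ran only from 0.616 to 3.85. The highest Ngp to Mpo ratio came from Ezh2-het batch 2 replicate 3, a library of 13.6 M counts with 1162 CPM of Ngp and only 4.56 of Mpo and 1.85 of Elane. Among late genes, Ngp to Retnlg ran from 3.84 to 434, with the lowest ratio in control batch 1 replicate 2.

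Co-variation was measured over the 35 libraries on log2(CPM + 1) after subtracting each group's mean. For 9 pairs, two-sided permutation tests were run with 100000 resamples and Benjamini-Hochberg adjustment over the 9. The smallest p these can give is 1e-05. S100a8 and S100a9 reached Pearson r = 0.993 (Spearman rho = 0.992), Ngp and Camp 0.982 (0.961), Ngp and Ltf 0.982 (0.973), Mpo and Elane 0.986 (0.991), and S100a8 and Ngp 0.958 (0.964), each with an unadjusted permutation p at that smallest value and an adjusted p of 1.8e-05. Leaving out the 2 libraries farthest from the median left these 5 values between 0.965 and 0.992, and they held within batches (0.959 to 0.997).

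The other 4 pairs, of which Mpo and Prtn3 share a stage, had lower values. Mpo and Ngp had r = 0.578 (rho = 0.575, permutation p = 0.00046, adjusted 0.00069), with 0.583 without the 2 farthest libraries, 0.391 within batch 1 and 0.558 within batch 2. Mpo and S100a8 had r = 0.547 (rho = 0.535, adjusted permutation p = 0.0011), but 0.250 within batch 1 and 0.553 within batch 2. Mpo and Prtn3 had r = 0.508 (rho = 0.586, adjusted permutation p = 0.002), with 0.072 within batch 1 and 0.606 within batch 2, so the relation was not seen in batch 1. S100a8 and the monocyte gene Csf1r had r = 0.163 (rho = 0.211, adjusted permutation p = 0.35).

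**Figure D3:**
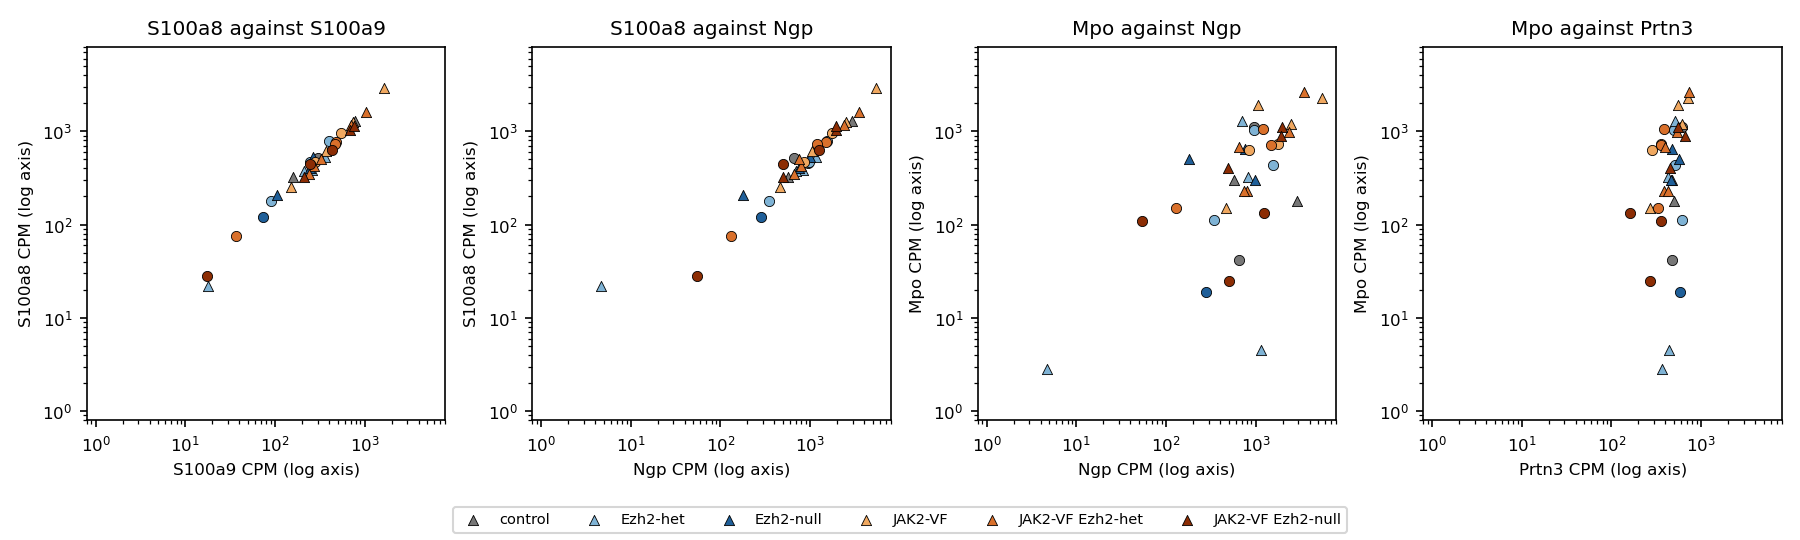
CPM of 4 pairs of members on log axes, 1 point per library, coloured by group (circles batch 1, triangles batch 2). S100a8 against S100a9 and S100a8 against Ngp form narrow bands, Mpo against Ngp is a broad cloud, and Prtn3 spans a short range while Mpo moves over a 925-fold range.

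Over all pairs, given as a description of libraries that also differ in depth, the median r was 0.603 among late genes (190 pairs), 0.940 among early genes (10 pairs) and 0.546 between late and early genes. Late and monocyte genes shared little (median 0.260), and monocyte genes did not form a tight block either (0.373). Ngp had r of at least 0.9 with 9 of the 36 other members and under 0.3 with 5, with Padi4 lowest at 0.117. Mpo had r of at least 0.9 with 3. Mmp8 stood apart from the late genes, its closest member being Mmp9 at 0.723. Lyz2 was closest to Pglyrp1 (0.842). The correlation with the library's total counts was 0.348 for Ngp, 0.365 for S100a8, 0.571 for Mpo and 0.554 for Prtn3, and the part of depth in these levels was not tested.

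**Figure D4:**
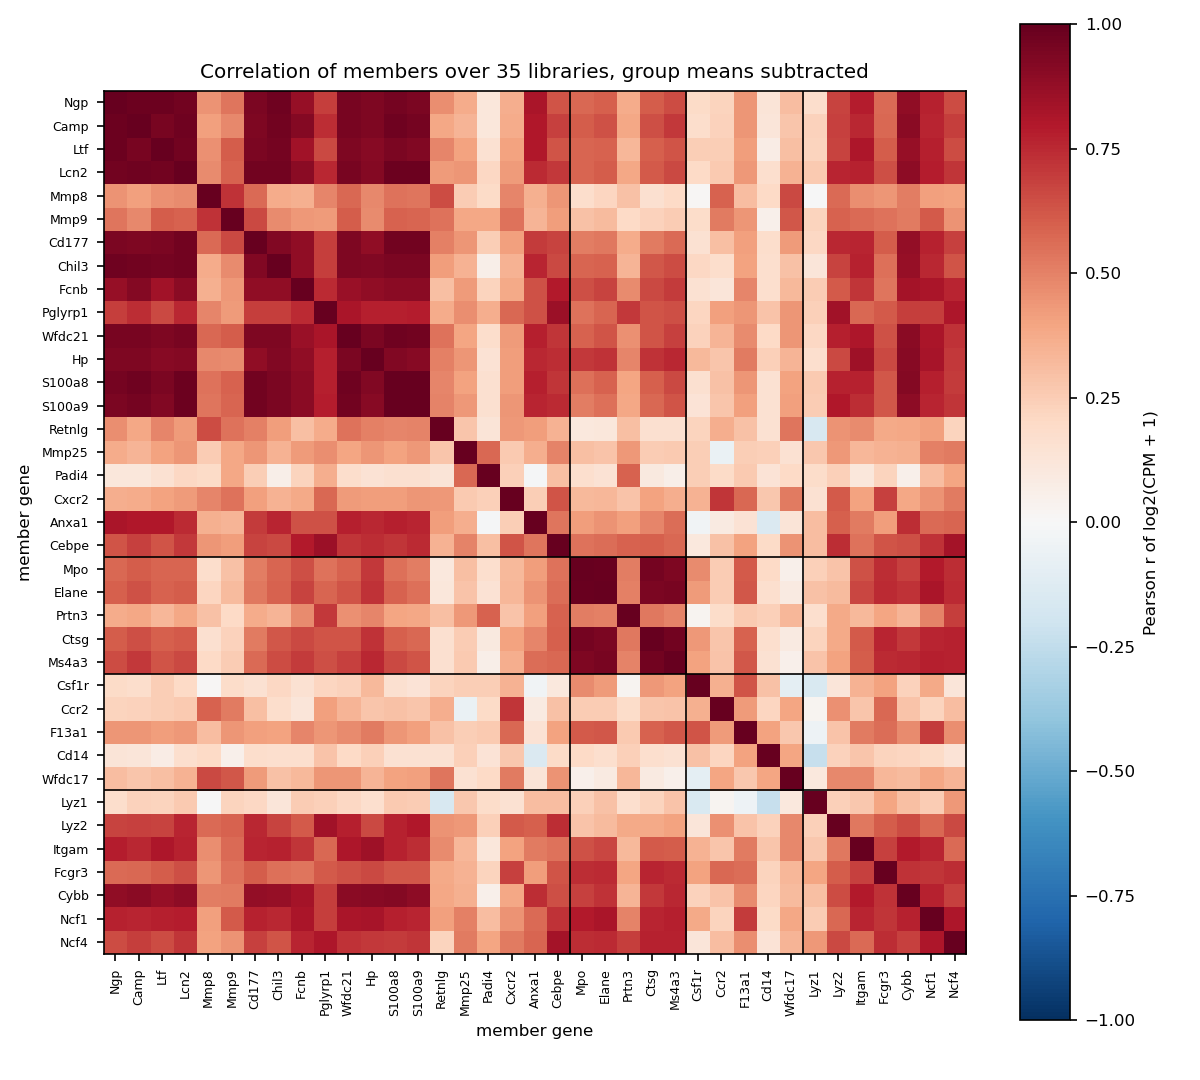
Pearson r between every pair of the 37 members over 35 libraries, on log2(CPM + 1) with group means subtracted, with lines between the stages. The early genes other than Prtn3 and several late genes, among them Ngp, Camp, Ltf, S100a8 and S100a9, form blocks of high r from which Mmp8 and Padi4 stand apart, with median 0.546 between late and early genes.

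Among 11829 genes whose log2(CPM + 1) averaged 1 or more, those most like Ngp outside the list were C3, complement component 3 (r = 0.881), Cd52, a leukocyte surface glycoprotein (0.845), Lrg1, a granulocyte glycoprotein (0.843), Ifitm6 (0.842) and the signalling adaptor Tyrobp (0.811). Those most like Mpo were Atp8b4 (0.898), Ly6c2, a myeloid surface antigen (0.896), Cst7, cystatin F (0.868), Clec12a, a myeloid lectin receptor (0.823), and Dmkn (0.790). Clec12a and Clec4a2 were among the 8 most alike for both Ngp (0.803 and 0.789) and Mpo (0.823 and 0.759).

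JAK2V617F was compared with controls first. In edgeR's quasi-likelihood test with terms for batch and sex, none of the 37 members was called at an adjusted p under 0.05, against 4.22% of all tested genes. At an unadjusted p under 0.05 there was 1 member, against 17.4% of all genes, and DESeq2 called 1, Anxa1, against 6.79%. Ngp was 961, 661, 2912 and 568 CPM in the 4 controls and had a lowest, median and highest value of 467, 1422 and 5486 in JAK2-VF. Every control lay inside the JAK2-VF range, and no member's values were free of overlap between these groups, as were those of 6.26% of all genes. The log2 difference was 0.01 ± 0.92 (SE, edgeR adjusted p = 0.999). Mpo was 1122, 41.9, 179 and 301 CPM in controls and 151, 964 and 2295 in JAK2-VF at the lowest, median and highest. Most JAK2-VF libraries were high, but the groups overlapped, and the log2 difference was 0.38 ± 1.17 (edgeR adjusted p = 0.924).

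Anxa1 came closest to a call. It was 288 ± 88.2 CPM in controls (n = 4) and 438 ± 80.4 in JAK2-VF (n = 6), with 4 of 6 JAK2-VF libraries above all controls (log2 0.56 ± 0.19, edgeR adjusted p = 0.0842). Its adjusted p fell under 0.05 when any of 3 libraries was left out: Ezh2-het batch 1 replicate 2 (0.0494), JAK2-VF batch 2 replicate 1 (0.0437) and control batch 2 replicate 2 (0.012). Ccr2 had a log2 difference of -4.39 ± 2.24 (edgeR adjusted p = 0.313) and Prtn3 of -0.44 ± 0.27 (0.411). The list had 18 positive and 19 negative differences, with a median of -0.00 against -0.03 over all genes. Since all controls were female and 4 of 6 JAK2-VF libraries male, this depended on the term for sex: without it the median was 0.58, with 26 positive. Median Mpo was 266 CPM in the 20 female and 1023 in the 15 male libraries, and Ngp 773 and 1064. These medians are not adjusted for group, batch or depth, over which the sexes were unevenly spread. The male Mpo median is the value of Ezh2-het batch 1 replicate 1, the library whose male label Xist goes against.

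Loss of Ezh2 alone gave no call by edgeR either. Comparing Ezh2-null with controls, 0 of 37 members were called against 0.00669% of all genes. At an unadjusted p under 0.05 there were 6, against 5.96%, and DESeq2 called 2, Mmp8 and Mmp9, against 0.657%. Differences were negative for 35 of 37 members, with a median log2 of -1.37 against -0.01 over all genes, of which 48.4% were positive. All 20 late genes were negative (median -1.85), and 11 members changed sign within batch 2 alone, where the list's median was -0.68. Members co-vary over libraries (Ngp and Ltf at r = 0.982). Their signs, here and below, are therefore not independent, and a few libraries can set many of them. All controls were female and 3 of 4 Ezh2-null libraries male. Without the term for sex the list's median was -0.92, with 3 positive.

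Mmp8 and Mmp9 had almost no counts in Ezh2-null cells. Mmp8 was 3.29, 28.5, 2.70 and 0.620 CPM in controls and 0, 0, 0.0645 and 0 in Ezh2-null. The groups did not overlap, and the 4 Ezh2-null libraries held 2 Mmp8 counts in all against 786 in controls, a 513-fold ratio after scaling for depth (95% exact interval 142 to 4247, counting error only). Of the 786, 645 came from control batch 1 replicate 2, and without it the ratio was 124-fold (33.7 to 1036). The spread between libraries is not in that interval, and the edgeR adjusted p was 0.415. Mmp9 was 1.57, 49.5, 9.67 and 8.77 CPM in controls and 0.221, 0, 0.677 and 0 in Ezh2-null, again without overlap, with 26 counts against 1561 and an edgeR adjusted p of 0.453. Without control batch 1 replicate 2 the Mmp9 ratio went from 78.4-fold to 29.7-fold. These were the 2 members whose groups did not overlap, as did 2.81% of all genes. Ngp was 281, 179, 760 and 996 CPM in Ezh2-null, a log2 difference of -2.14 ± 1.09 from controls (edgeR adjusted p = 0.843) with overlapping groups, and Ncf4 had -1.04 ± 0.40 (0.775).

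In Ezh2-het cells against controls, 0 of 37 members were called by edgeR (0.0% of all genes), 6 had an unadjusted p under 0.05 (5.17% of all genes), and DESeq2 called 0 (0.433%). All 37 differences were negative, with a median of -1.03 against 0.00 over all genes, of which 50.2% were positive. Here 4 of 7 Ezh2-het libraries were male, and without the term for sex the median was -0.54, with 2 positive. Within batch 1 alone the median was -1.09 with 6 positive, and within batch 2 alone -1.08 with 4 positive. The smallest p-values belonged to Cxcr2 (log2 -4.34 ± 1.43), Ncf4 (-0.94 ± 0.35) and Ccr2 (-4.95 ± 2.13), with edgeR adjusted p of 0.901, 0.901 and 0.952. The comparisons of JAK2-VF, Ezh2-null and Ezh2-het cells above share the same 4 controls, of which 1 (control batch 2 replicate 2) held 2912 CPM of Ngp.

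The effect of JAK2V617F in cells without Ezh2 was compared next, and 2 members rose in JAK2-VF Ezh2-null over Ezh2-null, against 4.84% of all genes called. At an unadjusted p under 0.05 there were 9 members, against 18.4% of all genes, and DESeq2 called 4 (Mmp8, Mmp9, Ncf4 and Pglyrp1), against 7.56%. Mmp8 was 0, 16 and 31.9 CPM at the lowest, median and highest in the 6 JAK2-VF Ezh2-null libraries, against 0.0645 or less in Ezh2-null. In 5 of 6 libraries Mmp8 lay above every Ezh2-null library, and the lowest was at 0. The 2 members with no overlap at all between the groups were Anxa1 and Retnlg, against 6.84% of all genes. Anxa1 was 298 to 408 CPM against 216 to 262 (log2 0.51 ± 0.19, edgeR adjusted p = 0.114), and Retnlg 45.1 ± 34.5 against 3.41 ± 3.93 (log2 4.02 ± 1.72, edgeR adjusted p = 0.197). Summed Mmp8 counts were 2716 against 2, an 826-fold ratio after scaling for depth (95% exact interval 228 to 6821, counting error only), and the edgeR adjusted p of Mmp8 was 0.00844. The fitted log2 difference of Mmp8, 10.70 ± 2.47, rests on those 2 counts and is no estimate of size.

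Mmp9 was 0, 14 and 29.1 CPM at the lowest, median and highest in JAK2-VF Ezh2-null, against at most 0.677 in Ezh2-null. It too lay above every Ezh2-null library in 5 of 6. The summed counts were 2376 and 26, a 55.6-fold ratio (37.8 to 85.2, counting error only), and the edgeR adjusted p was 0.0274. Mmp9 was not called without Ezh2-null batch 1 replicate 1 (0.0743), batch 2 replicate 1 (0.107) or batch 2 replicate 3 (0.0863), whereas Mmp8 was called whichever single library was left out. Both calls were lost when the 2 groups were fitted on their own (log2 8.55, adjusted p = 0.0566 for Mmp8, and 6.41, 0.147 for Mmp9). Within batch 2 the log2 differences were 10.55 (adjusted p = 0.00167) and 5.82 (0.0344), and within batch 1, with a single Ezh2-null library, 13.99 (0.667) and 6.32 (0.81). Sex differed between the groups, with 3 of 4 Ezh2-null libraries male and 5 of 6 JAK2-VF Ezh2-null libraries female, and without the term for sex the log2 differences were 9.27 and 5.85. Pglyrp1 had a log2 difference of 1.2 ± 0.38 (edgeR adjusted p = 0.0615), and it was called without JAK2-VF batch 2 replicate 1 (0.0204) or Ezh2-het batch 2 replicate 2 (0.0398). Leaving out Ezh2-het batch 2 replicate 2 raised the number of members called to 5, with Anxa1 and Ncf4. Over the list, 34 of 37 differences were positive (median 1.21 against 0.01 over all genes, of which 50.7% were positive). Among them were Ngp at 1.61 ± 0.98 (edgeR adjusted p = 0.407) and Mpo at 0.66 ± 1.13.

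In Ezh2-het cells JAK2V617F gave 2 rises as well, against 9.05% of all genes called. At an unadjusted p under 0.05 there were 5 members (22.7% of all genes), and DESeq2 called 3 (11.6%). Ncf4 was 7.70, 18.1 and 23.3 CPM at the lowest, median and highest in Ezh2-het and 15.1, 32.6 and 74.1 in JAK2-VF Ezh2-het. The values of 7 of 8 JAK2-VF Ezh2-het libraries lay above all Ezh2-het libraries, a log2 difference of 1.22 ± 0.29 (edgeR adjusted p = 0.00464), and the call held whichever single library was left out. Within batches it was 1.07 (adjusted p = 0.245) in batch 1 and 1.41 (0.0552) in batch 2. Anxa1 was 153, 271 and 389 CPM in Ezh2-het and 307, 377 and 450 in JAK2-VF Ezh2-het, with 3 of 8 above all Ezh2-het libraries (log2 0.48 ± 0.14, edgeR adjusted p = 0.0237). The Anxa1 call was lost without JAK2-VF Ezh2-het batch 1 replicate 1 (0.0522), batch 2 replicate 5 (0.0541) or Ezh2-het batch 2 replicate 2 (0.0577). Cxcr2 had 3.12 ± 1.14 (edgeR adjusted p = 0.0802) and was called without Ezh2-het batch 2 replicate 4 (0.0121). Positive differences numbered 36 of 37, with a median of 0.80 against -0.01 over all genes, of which 49.0% were positive. Within batch 1 alone 26 were positive (median 0.52), within batch 2 alone 36 (1.09), and in females alone 31 (0.40). Ngp had 0.65 ± 0.71 (edgeR adjusted p = 0.654) and Mpo 1.09 ± 0.92 (0.545).

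Within JAK2-VF cells, loss of Ezh2 moved no member past the threshold. For JAK2-VF Ezh2-null against JAK2-VF edgeR called 0 of 37 (0.475% of all genes), 2 had an unadjusted p under 0.05 (7.13%), and DESeq2 called 0 (1.31%). Wfdc17 had the smallest p, at 15.5 CPM against 5.50 (log2 1.66 ± 0.65, edgeR adjusted p = 0.448). All 5 monocyte genes had positive differences and all 5 early genes negative ones, from -1.30 to -0.0036, where 50.9% of all genes were positive. Within batch 2 alone 12 members changed sign, among them Mpo (0.17), and 22 were positive. Of the JAK2-VF libraries 4 were male, and of the JAK2-VF Ezh2-null libraries 5 were female. The list's median of -0.34 was -0.60 without the term for sex, with 8 positive. For JAK2-VF Ezh2-het against JAK2-VF edgeR called 0 (0.0% of all genes), no member had an unadjusted p under 0.05 (3.87%), and DESeq2 called 0 (0.298%).

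The change with JAK2V617F was tested for a difference between Ezh2-null and Ezh2 +/+ cells by an interaction term. No member was called by edgeR (0.00669% of all genes), 4 had an unadjusted p under 0.05 (5.41%), and DESeq2 called 2, Mmp8 and Mmp9 (0.623%). Mmp8 had a fitted difference of 12.13 ± 3.15 (edgeR adjusted p = 0.26, DESeq2 0.000614) and Mmp9 of 8.54 ± 2.50 (0.448 and 0.0105), so whether these differences passed depended on the tool. The list's median interaction of 1.19 was 0.29 without the term for sex.

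**Figure D5:**
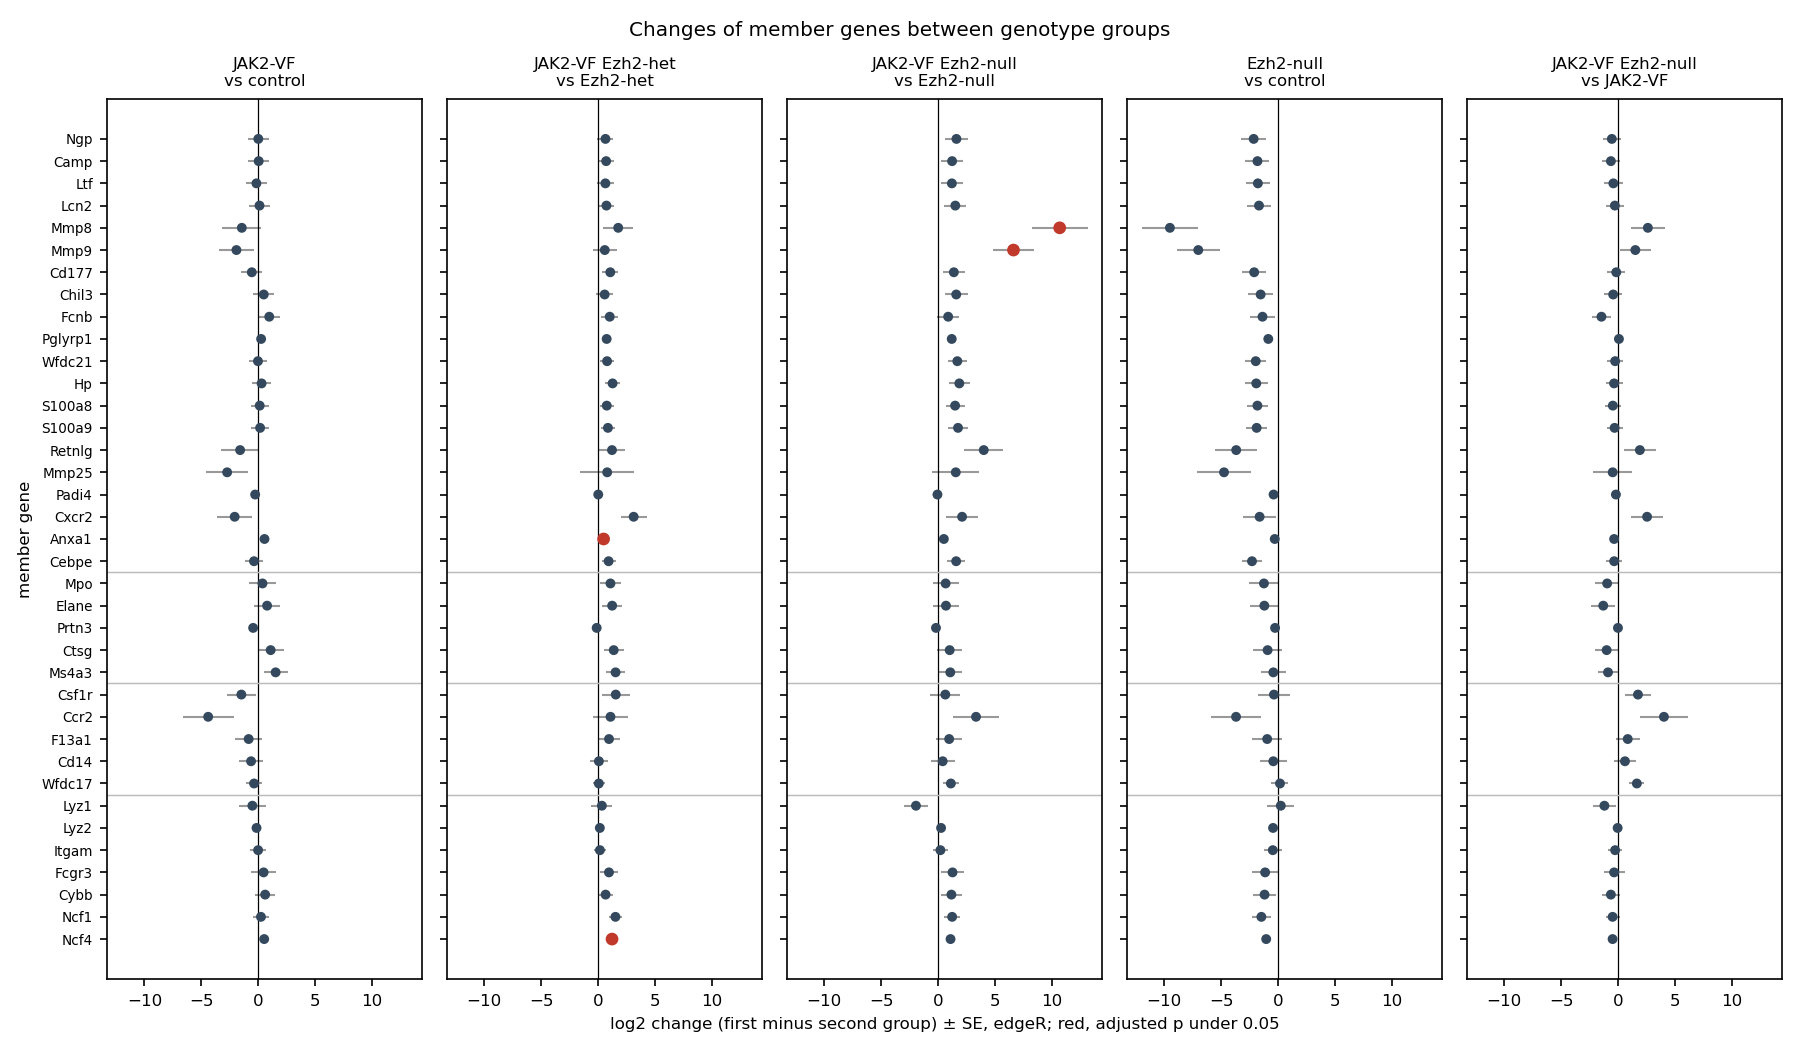
Fitted log2 difference ± SE of each of the 37 members in 5 comparisons, with red for those called by edgeR at an adjusted p under 0.05. The called points are Mmp8 and Mmp9 in JAK2-VF Ezh2-null against Ezh2-null and Ncf4 and Anxa1 in JAK2-VF Ezh2-het against Ezh2-het. Points lie mostly right of 0 in these 2 comparisons (34 and 36 of 37) and mostly left of 0 in Ezh2-null against control (35 of 37). Members co-vary over libraries, so these signs are not independent.

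Between batches 2 members were called, against 28% of all genes (DESeq2 also called 2, against 31.6%). Padi4 was higher in batch 2 by 0.31 ± 0.11 (edgeR adjusted p = 0.033) and Cebpe by 1.14 ± 0.44 (0.0487). The Cebpe call was lost in 26 of the 35 fits that left out 1 library, and the Padi4 call in 6.

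Several genes outside the list were called in these comparisons. Of 13 myeloid cytokine receptors, Csf2rb, the common beta chain for GM-CSF, rose with JAK2V617F from 27.9 ± 11.1 CPM in controls to 77.0 ± 12.9 in JAK2-VF (log2 1.65 ± 0.26, edgeR adjusted p = 0.000245). It rose also in Ezh2-null cells (2.28 ± 0.26) and Ezh2-het cells (1.83 ± 0.19). Of 37 other tested granule and myeloid genes, Plac8, a gene of myeloid progenitors, rose in all 3 (1.78 ± 0.40, 2.50 ± 0.41 and 1.64 ± 0.30). Fcer1g, an Fc receptor subunit, fell against controls (-1.28) and in Ezh2-het cells (-1.08), and the protease gene Ctsh fell against controls (-1.27). Over that list 1 gene rose and 2 fell against controls, 5 rose and none fell in Ezh2-null cells, and 4 rose and 1 fell in Ezh2-het cells. Prss57, a serine protease of neutrophil granules, was called in Ezh2-null cells (2.02 ± 0.50) and Ezh2-het cells (1.75 ± 0.37). Of 18 myeloid transcription factors, only Egr1 passed against controls (0.72 ± 0.20, edgeR adjusted p = 0.0271). Of 14 stem cell genes, 5, 5 and 7 fell and none rose in JAK2-VF, JAK2-VF Ezh2-null and JAK2-VF Ezh2-het against their partners without JAK2V617F, and of 10 proliferation genes 9, 9 and 10 rose, where 4.22%, 4.84% and 9.05% of all genes were called. Of 12 erythroid genes, 7 fell in JAK2-VF Ezh2-het against Ezh2-het (median log2 -4.39), among them the haemoglobin gene Hbb-bs at 0.950 ± 0.316 CPM against 82.7 ± 83.5. Their summed level overlapped between these groups (4138 to 6616 and 4357 to 6125 CPM). The haemoglobin gene Hbb-bt rose in JAK2-VF Ezh2-null against Ezh2-null (3.24 ± 0.54). The NK cell gene Klrb1c fell in JAK2-VF against controls (-3.0 ± 0.58) and with JAK2V617F in Ezh2-het cells (-2.31 ± 0.44). It was the 1 call among 5 tested T and NK cell genes in each, where that list's median log2 was 0.63 and -2.31. In Ezh2-het cells 1 of 8 tested macrophage genes fell, the scarce C1qa (-6.42 ± 2.05, 0.099 CPM against 1.74). Clec9a (-1.81 ± 0.54) fell there as 1 of 5 tested dendritic cell genes. Over all genes 4.22% and 9.05% were called in these 2 comparisons. Of these lists, the stem cell and proliferation genes moved in both comparisons in which Mmp8, Mmp9, Ncf4 and Anxa1 were called. In JAK2-VF Ezh2-null against Ezh2-null, 0 T and NK cell, macrophage, dendritic cell or transcription factor genes were called. The part of any of these genes in the calls of members was not tested.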

How the data were processed

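Each library had 1 deposited table of raw counts by Entrez gene identifier, with a gene length in bases (an other value) in a column of its own, per the file headers. Reads were aligned with STAR to mm9, per the submitters' processing notes. Counting tool, strand setting and annotation: not given in the sources used here. Libraries were made from 1000 sorted cells with a SMARTer low-input kit, per the labels' protocols, and held 13.6 to 48.6 M counts (M is 1000000), so that 1 count was under 0.1 CPM. A separately tallied segment of Ezh2, at most 0.000935% of a library, entered neither the totals nor the tests. Symbols for 19075 of 19138 genes came from RefSeq. No 2 libraries held identical counts.

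The genes and lists were chosen with earlier results of these data known. Counts were scaled by TMM (factors 0.937 to 1.062) and fitted with edgeR 4.0.16 (R 4.3.3, limma 3.58.1), glmQLFit with robust estimation and glmQLFTest, on all 35 libraries, with group, batch and sex in the design. The filter filterByExpr kept 14945 genes, among them all 37 members, and removed 4193. P-values were adjusted by Benjamini-Hochberg over all tested genes and called under 0.05. Fitting all groups together shares one estimate of the spread. The SE of a log2 difference is its size over the square root of F. DESeq2 1.42.0 and other normalization, filter, covariate, block, batch, sex and leave-one-out choices were alternatives. A fit without robust estimation, and one without the libraries of highest and lowest late level, were added after seeing the data. The fit was tested on simulated counts with known changes. Named members are those called and, where fewer than 3 were called, the 3 smallest p-values. Figures and correlations used Python 3.11.15, pandas 2.3.3, scipy 1.17.1 and matplotlib 3.10.9.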

Additional observations from a re-analysis of the deposited data

Results flagged for a closer look

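In 21 of 132 sets of values (1 member or class in 1 group of 4 to 8 libraries, on log2(CPM + 1)) the extreme library lay far from the others by Dixon's criterion, where chance gives about 1 in 20, or 6.6.

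Ezh2-het batch 2 replicate 2 stood below the other Ezh2-het libraries in the mean of the late genes (1.91, the next 4.75) and in Ngp (2.5, next 8.44), S100a8 (4.51, next 7.49), Camp (1.23, next 5.57), Ltf (0.803, next 6.83) and Lcn2 (1.19, next 4.83). JAK2-VF Ezh2-het batch 1 replicate 3 stood below its group in the mean of the late genes (3.22, next 5.52), S100a9 (5.25, next 7.9), Ltf (4.34, next 7.7), Lcn2 (3.6, next 6.75), Mmp9 (0.0, next 2.33) and Retnlg (0.0, next 3.69). JAK2-VF Ezh2-null batch 1 replicate 3 was low in S100a8 (4.86, next 8.34) and S100a9 (4.22, next 7.72). These flags share libraries and co-varying genes and are not independent.

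The early genes Ctsg (2.41, next 5.57) and Ms4a3 (2.83, next 6.03) were low in JAK2-VF batch 2 replicate 1. Ezh2-null batch 1 replicate 1 had the lowest mean of the shared phagocyte genes in its group (2.9, next 4.16). High values were Lcn2 in control batch 2 replicate 2 (8.55, next 6.58), Padi4 in control batch 1 replicate 2 (7.8, next 7.31), Ncf4 in Ezh2-null batch 2 replicate 1 (4.5, next 3.9) and Mmp8 in Ezh2-null batch 2 replicate 2 (0.0902, next 0.0), the last resting on 2 counts.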

How the results depend on the processing

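No value reversed direction while called. Of the levels of members, 222 stayed within 1 SD under the alternatives tried, and of the log2 differences of named members 1172 kept their side of the threshold, 62 lost a call and 20 gained one. For JAK2-VF against control, with 0 members called, DESeq2 and the fit with no term for sex called 1 each (Anxa1) and the compared groups alone 2 (Ccr2 and Cxcr2). DESeq2 called 2 for Ezh2-null against control and 2 for the interaction (Mmp8 and Mmp9 in both). For JAK2-VF Ezh2-null against Ezh2-null, with 2 called, DESeq2 called 4, the compared groups alone, batch 1 alone and females alone 0, and the fit without the libraries of highest and lowest late level 4. For JAK2-VF Ezh2-het against Ezh2-het, with 2 called, the compared groups alone called 1 (Ncf4), batch 1 alone 0, batch 2 alone 1 (Mmp8), females alone 0, and the fit without the highest and lowest late level 1 (Ncf4). Between batches, with 2 called, DESeq2 size factors gave 1 (Padi4), no filter on low counts 0, females alone 0, a non-robust prior 1 and the fit without the highest and lowest late level 1. The correlation of Mpo with Prtn3 was 0.072 and of Mpo with S100a8 0.250 in batch 1 alone. Fewer libraries entered the fits of single batches, females and compared groups; for the other settings the cause was not tested.

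Leaving out 1 library at a time, the members called ranged from 0 to 1 for JAK2-VF against control, 1 to 5 for JAK2-VF Ezh2-null against Ezh2-null, 1 to 3 for JAK2-VF Ezh2-het against Ezh2-het, 0 to 4 between batches, and were 0 throughout for the other comparisons. Over the alternatives other than leaving out 1 library, the edgeR or DESeq2 adjusted p ranged from 4.82e-07 to 0.667 for Mmp8, 1.48e-04 to 0.81 for Mmp9, 5.24e-04 to 0.245 for Ncf4 and 0.0115 to 0.374 for Anxa1 in the comparisons that called them.

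Groups share replicate numbers, but over 69 same-numbered pairs of libraries the correlation of deviations had a median of -0.035 and none was over 0.1, so the numbers did not pair libraries. With a replicate block, the members called were 1 (Mmp8) for JAK2-VF Ezh2-null against Ezh2-null, where Mmp9 had a log2 difference of 5.84 (edgeR adjusted p = 0.125), and 1 (Ncf4) for JAK2-VF Ezh2-het against Ezh2-het. The list's median log2 with that block was 0.43 (25 positive) for JAK2-VF, -0.76 (7 positive) for Ezh2-null and -0.46 (7 positive) for Ezh2-het, each against control. It was 0.41 (29 positive) for JAK2-VF Ezh2-het against Ezh2-het and 0.94 (34 positive) for JAK2-VF Ezh2-null against Ezh2-null. Scarce members limit what depth can show: 16 of 37 were at 0 in at least 1 library.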
